A study of Mus musculus with 12 samples.

Results

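Imprinted genes are transcribed mainly from the copy inherited from 1 parent. A list of 10 mouse genes of this kind, known for roles in growth and in neurons, was read across a conversion of fibroblasts towards motor neurons: Magel2, Ndn, Peg3, Igf2, H19, Dlk1, Meg3, Grb10, Plagl1 and Mest. Rows were taken by gene symbol, and 8 of the 10 were found among the 23077 genes of the table. H19 and Meg3, which encode long noncoding RNAs, were not analysed here. The genes were selected on sight of the levels and group differences measured in these same libraries, so the levels and differences of the 8 genes are given as a description, with no p-value.

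The cells were mouse embryonic fibroblasts carrying the Hb9::GFP reporter, and every group was infected with a retrovirus encoding Ngn2, Isl1 and Lhx3 joined by 2A peptides (NIL). In the RISDD group (n = 3) a further virus carried HRAS(G12V), a constitutively active RAS, ahead of an internal ribosome entry site (IRES), followed by a SNAP-tagged dominant-negative p53 fragment called p53DD. In the SDDIR group (n = 2) the SNAP-p53DD fusion stood ahead of the IRES and HRAS(G12V) behind it. The SDD group (n = 3) received SNAP-p53DD without HRAS(G12V), and the NIL group (n = 3) received the conversion factors alone. All cells were moved to N3 medium 3 days after infection and collected on day 4. The TGF-beta receptor inhibitor RepSox was given to every group except NIL. RISDD, SDDIR and SDD cells were sorted for the SNAP tag, whereas the sort of NIL took any live single cell, so SDD differs from NIL by p53DD, the additional virus, RepSox and the sort together. The labels call the libraries biological replicates A to C and do not say whether these were separate cultures, so every p-value below measures only the spread between these libraries. The heading of SDDIR B stood on 2 columns with the same values, which were counted as 1 library. Whether that library is replicate B or C could not be settled, so SDDIR B is the name of its heading only.

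Several of the 8 genes sit in shared imprinted domains. Magel2 and Ndn are neighbours in the Prader-Willi region on chromosome 7. Peg3 shares its domain on the same chromosome with Usp29 and Zim1. Igf2 lies beside H19, also on chromosome 7, and Dlk1 beside Meg3 on chromosome 12. Grb10 lies on chromosome 11, Plagl1 on chromosome 10 and Mest on chromosome 6. Magel2, Ndn, Peg3, Igf2, Dlk1, Plagl1 and Mest are expressed from the paternal copy, whereas Grb10 is expressed from the maternal copy in most mouse tissues and from the paternal copy in neurons. Plagl1 encodes a zinc-finger transcription factor that in mouse has been placed upstream of a network of imprinted genes, among them Igf2 and Dlk1.

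The start regions of 3 genes are shown: Peg3, because it shares its start region with a partner gene tested below, Magel2, which differed most between SDD and NIL, and Mest, which differed most between RISDD and SDDIR. The sequences are from RefSeq (build GRCm38.p6, which is not the build used for quantification), cover 250 bases before to 50 bases after an annotated start, and read 5′ to 3′ on the strand of the gene. Capitals mark matches, on either strand, to any of 4 motifs: the cAMP response element TGACGTCA, the PLAGL1 palindrome GGGGCCCC, the NR4A monomer site AAAGGTCA and the AP-1 site TGANTCA. The Peg3 window was chr7:6730370-6730669 on the minus strand, that of Magel2 chr7:62376729-62377028 on the plus strand, and that of Mest chr6:30737800-30738099 on the plus strand.

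Peg3: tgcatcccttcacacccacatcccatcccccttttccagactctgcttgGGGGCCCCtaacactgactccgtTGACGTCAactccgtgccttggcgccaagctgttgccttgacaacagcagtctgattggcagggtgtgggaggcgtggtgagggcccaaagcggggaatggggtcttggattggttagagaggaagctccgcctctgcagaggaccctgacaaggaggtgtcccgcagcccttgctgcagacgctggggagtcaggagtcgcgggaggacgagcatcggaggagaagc
Magel2: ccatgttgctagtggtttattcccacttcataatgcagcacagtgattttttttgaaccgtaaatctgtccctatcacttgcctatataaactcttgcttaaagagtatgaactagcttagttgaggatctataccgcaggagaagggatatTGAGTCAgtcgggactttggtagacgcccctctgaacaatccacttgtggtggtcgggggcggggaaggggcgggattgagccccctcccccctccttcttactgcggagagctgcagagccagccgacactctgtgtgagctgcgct
Mest: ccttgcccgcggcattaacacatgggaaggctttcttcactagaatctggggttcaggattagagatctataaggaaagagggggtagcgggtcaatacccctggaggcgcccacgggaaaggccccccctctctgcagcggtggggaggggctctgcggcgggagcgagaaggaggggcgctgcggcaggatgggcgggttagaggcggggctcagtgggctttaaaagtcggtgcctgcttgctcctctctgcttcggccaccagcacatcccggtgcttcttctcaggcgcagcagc

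The Peg3 window held GGGGCCCC and TGACGTCA, and the Magel2 window held 1 TGANTCA match. No listed motif was present in the Mest window, nor in any other of the 14 windows annotated for the 8 genes. Over all 32851 windows of the same length, TGACGTCA occurred in 1.79%, GGGGCCCC in 1.08%, AAAGGTCA in 1.51% and TGANTCA in 7.81%. A match is a run of letters in a window and shows no binding. The Peg3 start lies head to head with that of Usp29, and the 2 windows share 263 bases, so both motifs of the Peg3 window are also in the Usp29 window. Where a gene had several annotated windows, the one with the most CpG dinucleotides was shown. CpG dinucleotides numbered 13 in the Peg3 window and 10 in that of Magel2, each the only window of its gene. Mest had windows with 8, 17 and 17, so its 17 is a selected highest value. The median over all windows was 7. Of all windows, 62.1% had fewer CpG than that of Peg3, 56.5% fewer than that of Magel2 and 68.6% fewer than that of Mest.

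The values are reads per gene that the authors had already scaled to each library, called scaled reads here. They were whole multiples of 1 unit in each library, and the reads recovered from them ranged from 14872639 in SDDIR B to 29815073 in SDD C. The Trp53 row, which takes in reads of p53DD, lay between 43128 and 46185 scaled reads in RISDD, at 29277 and 37068 in SDDIR and between 32346 and 40363 in SDD and between 2873 and 3674 in NIL, so the groups labelled with p53DD stood above NIL. The Hras row lay between 1088 and 1234 in RISDD, at 911 and 933 in SDDIR and between 830 and 981 in SDD, so it gave no check of the delivered HRAS(G12V). NIL C stood apart from the other NIL libraries: mitochondrially encoded genes held 0.537% of its signal, against 3.62% in NIL A, 4.00% in NIL B and 2.60% to 4.04% elsewhere. The rows of the conversion factors were also higher in NIL C than in NIL A and NIL B. Neurog2 (Ngn2) had 167282 scaled reads, against 59694.6 and 58398.5. Lhx3 had 258391, against 100451 and 102271, and Isl1 had 163542, against 106246 and 112049.

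**Figure D1:**
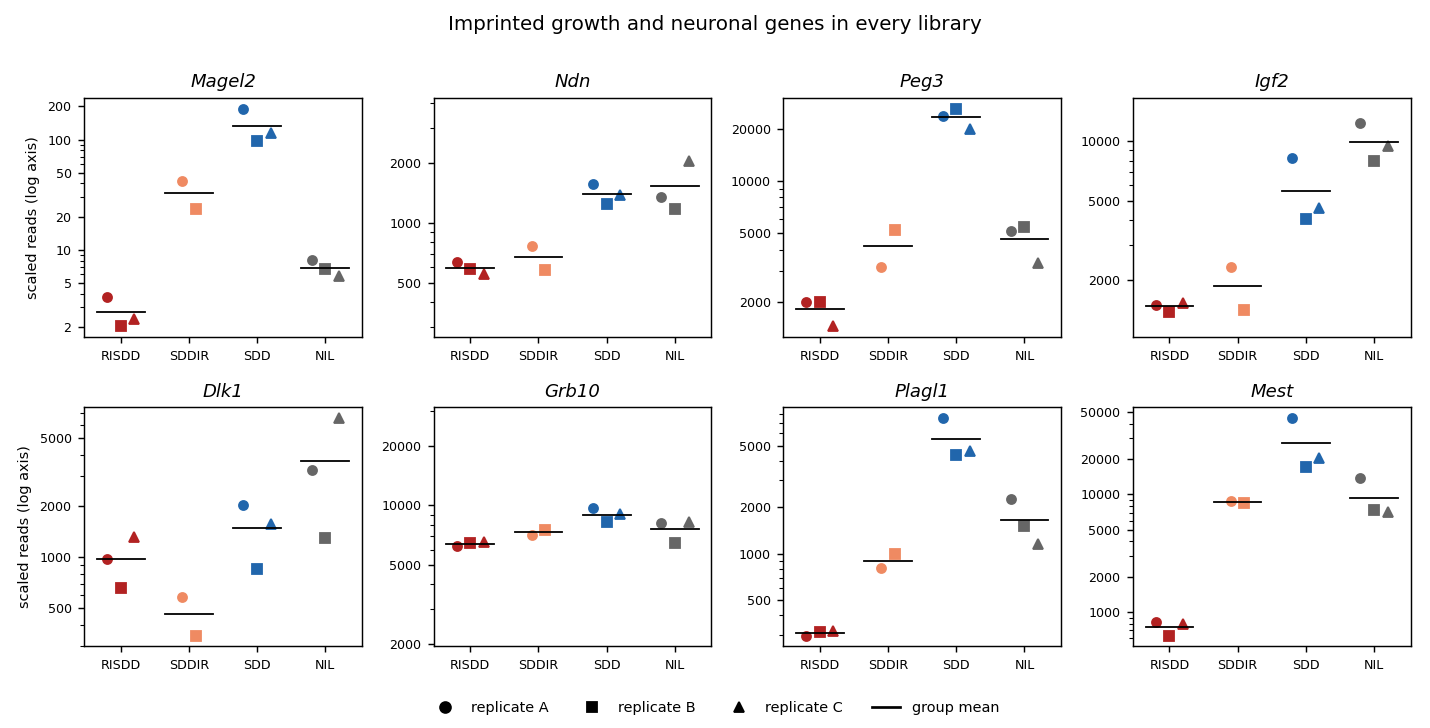
Scaled reads (log axis) of the 8 imprinted genes in each library of RISDD, SDDIR, SDD and NIL, with symbols for replicates A to C and a line at each group mean. Magel2, Peg3, Plagl1 and Mest are highest in SDD and lowest in RISDD, Igf2, Dlk1 and Ndn have their highest means in NIL, and Grb10 varies least.

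Magel2 (ENSMUSG00000056972.7) encodes a MAGE-family protein that acts with an E3 ubiquitin ligase in protein sorting at endosomes and is expressed mainly in the nervous system. It had 3.71, 2.02 and 2.37 scaled reads in RISDD, 42.3 and 23.7 in SDDIR, 189, 96.7 and 115 in SDD, and 8.14, 6.69 and 5.82 in NIL. No libraries of any 2 groups overlapped, and the order from high to low was SDD, SDDIR, NIL, RISDD. The gene passed the minimum of 10 scaled reads in 3 libraries only through SDD and SDDIR. The recovered reads were few: 8 in all 3 RISDD libraries together and 22 in the 3 NIL libraries, against 70 in SDDIR and 456 in SDD. On pooled reads Magel2 was 49.2-fold lower in RISDD than in SDD, with an exact 95% counting interval of 24.8 to 115, and 2.67-fold lower in RISDD than in NIL, with an interval of 1.14 to 6.93. Against SDDIR, RISDD was 13.2-fold lower on pooled reads, with an interval of 6.36 to 31.9. These intervals cover counting error only. On the log2(value + 1) scale used below, the difference was 4.05 ± 0.39 (SE) for SDD minus NIL and -1.98 ± 0.44 for SDDIR minus SDD.

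Ndn (ENSMUSG00000033585.6) encodes necdin, a MAGE-family protein that restrains cell proliferation and is abundant in postmitotic neurons. It had 631, 588 and 550 scaled reads in RISDD, 760 and 581 in SDDIR, 1566, 1241 and 1374 in SDD, and 1353, 1175 and 2045 in NIL. SDD and NIL overlapped, with a log2 difference of -0.09 ± 0.20 (SE). RISDD and SDDIR also overlapped, and all 5 of their libraries were below every SDD and NIL library. The log2 difference was -1.06 ± 0.23 for SDDIR minus SDD and -1.24 ± 0.20 for RISDD minus SDD. Although Ndn and Magel2 have no other protein-coding gene between them, the SDD minus NIL difference was near 0 for Ndn and the largest of the 8 for Magel2.

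Peg3 (ENSMUSG00000002265.18) encodes a zinc-finger protein that acts in maternal behaviour, growth and the p53-linked control of cell death. It had 1991, 1999 and 1439 scaled reads in RISDD, 3189 and 5163 in SDDIR, 23802, 25937 and 19863 in SDD, and 5117, 5430 and 3325 in NIL. Every SDD library was above every library of the other groups, every RISDD library was below them, and SDDIR overlapped NIL. SDD was 5.10-fold higher than NIL. SDDIR was 5.68-fold lower than SDD, and RISDD was 12.9-fold lower than SDD. The log2 difference between RISDD and SDDIR was -1.18 ± 0.27 (SE), and without SDDIR B it was -0.83.

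Igf2 (ENSMUSG00000048583.18) encodes insulin-like growth factor 2, a growth factor of the embryo and placenta. It had 1499, 1383 and 1543 scaled reads in RISDD, 2332 and 1413 in SDDIR, 8210, 4076 and 4607 in SDD, and 12310, 7931 and 9465 in NIL. SDD A was above NIL B, so SDD and NIL overlapped, and their log2 difference was -0.86 ± 0.28 (SE). RISDD and SDDIR overlapped too, and all of their libraries were below all of SDD. SDDIR was 2.95-fold lower than SDD and RISDD was 3.64-fold lower than SDD. The table has a separate row, Gm49394, that overlaps Igf2. It held 0 to 1.58 scaled reads in RISDD, 0 and 2.37 in SDDIR, 5.80 to 14.7 in SDD and 0 to 45.6 in NIL, so reads assigned to it were few beside those of Igf2.

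Dlk1 (ENSMUSG00000040856.18) encodes a transmembrane protein related to the Notch ligands that keeps preadipocytes undifferentiated. It had 975, 658 and 1312 scaled reads in RISDD, 581 and 346 in SDDIR, 2041, 851 and 1570 in SDD, and 3235, 1291 and 6553 in NIL. It was the only one of the 8 genes whose RISDD libraries all lay above both SDDIR libraries, with a log2 difference of 1.07 ± 0.60 (SE). RISDD overlapped SDD, and SDD overlapped NIL. NIL C held the highest value, and the SDD minus NIL difference of -1.11 ± 0.54 became -0.55 without it, whereas without NIL B, which held the lowest value, it became -1.72. SDDIR was lower than SDD by 1.64 ± 0.60 on the log2 scale.

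Grb10 (ENSMUSG00000020176.18) encodes an adaptor protein that binds the insulin and IGF receptors and restrains growth. It had 6235, 6449 and 6573 scaled reads in RISDD, 7122 and 7528 in SDDIR, 9741, 8209 and 9045 in SDD, and 8190, 6467 and 8246 in NIL. RISDD was below SDDIR and SDDIR below SDD with no overlap, but NIL overlapped both SDD and RISDD. The log2 differences were the smallest of the 8 genes against SDD, at -0.29 ± 0.14 (SE) for SDDIR and -0.48 ± 0.12 for RISDD.

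Plagl1 (ENSMUSG00000019817.19), the zinc-finger factor also called Zac1, can arrest the cell cycle and promote cell death. It had 296, 313 and 318 scaled reads in RISDD, 804 and 992 in SDDIR, 7512, 4341 and 4608 in SDD, and 2254, 1518 and 1150 in NIL. The 4 groups did not overlap, and the order from high to low was SDD, NIL, SDDIR, RISDD. SDD was 3.37-fold higher than NIL. SDDIR was 5.95-fold lower than SDD, and RISDD was 17.2-fold lower than SDD. RISDD was also lower than SDDIR by 1.53 ± 0.29 (SE) on the log2 scale.

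Mest (ENSMUSG00000051855.16) encodes a protein of the alpha/beta-hydrolase fold and is abundant in embryonic mesoderm and expanding fat tissue. It had 824, 632 and 796 scaled reads in RISDD, 8767 and 8405 in SDDIR, 44391, 17175 and 20383 in SDD, and 13725, 7390 and 7126 in NIL. RISDD was far below every other library, SDD was above all others, and SDDIR lay within the NIL range. RISDD was 33.4-fold lower than SDD and 11.5-fold lower than SDDIR. SDDIR was 2.91-fold lower than SDD, and SDD was 2.78-fold higher than NIL.

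The 8 genes varied in how far the 2 cassette orders differed. Between RISDD and SDDIR the difference on the log2(value + 1) scale was -3.52 ± 0.38 (SE) for Mest, -3.17 ± 0.44 for Magel2, -1.53 for Plagl1 and -1.18 for Peg3. It was -0.30 ± 0.31 for Igf2, -0.19 ± 0.14 for Grb10 and -0.17 ± 0.23 for Ndn. Set against NIL, the log2 differences in RISDD were -3.59 for Mest, -2.72 for Igf2, -2.35 for Plagl1, -1.67 for Dlk1, -1.34 for Peg3, -1.33 for Ndn, -1.11 for Magel2 and -0.24 for Grb10. Set against NIL, those in SDDIR were 2.06 for Magel2, -0.05 for Grb10, -0.06 for Mest, -0.16 for Peg3, -0.82 for Plagl1, -1.16 for Ndn, -2.42 for Igf2 and -2.75 for Dlk1. The scale understates changes of low genes. On pooled reads Magel2 was 13.2-fold lower in RISDD than in SDDIR and 2.67-fold lower than in NIL, so its place in these orders depends on the scale. Comparisons with NIL and those with SDD share libraries and are not independent of each other. In bulk RNA, fewer cells that express a gene and less RNA per cell cannot be told apart.

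**Figure D2:**
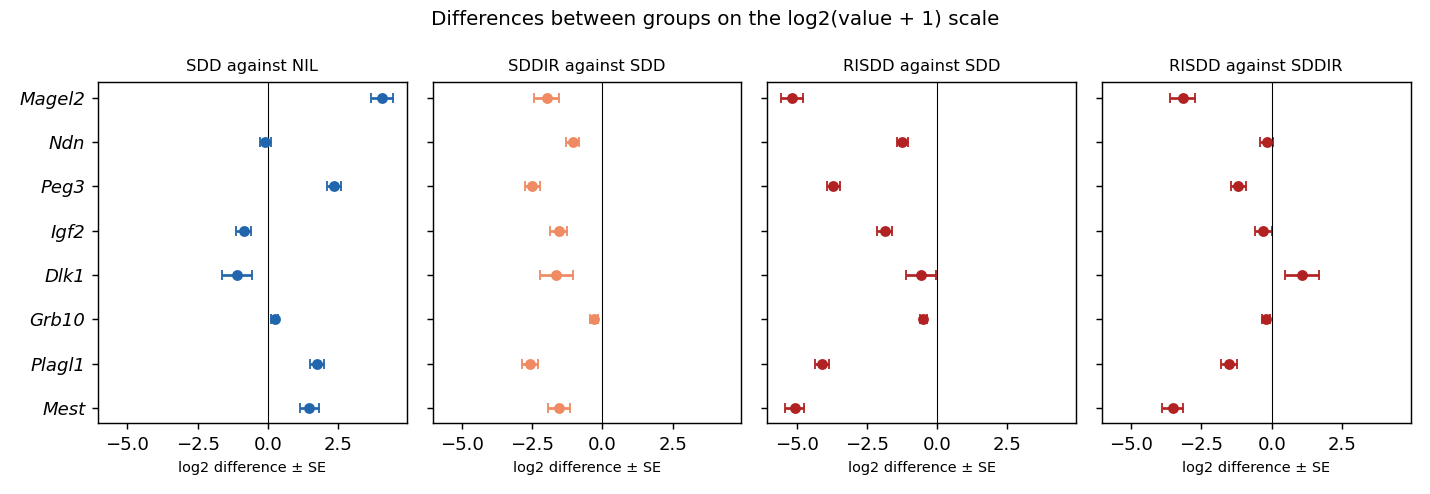
Log2 differences on the log2(value + 1) scale for the 8 imprinted genes, with standard errors of the fit as bars, in 4 panels with 1 comparison each. Points left of 0 are lower in the group a panel's title names first: all 8 are left of 0 in both comparisons with SDD, and Dlk1 alone is right of 0 for RISDD against SDDIR.

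Counts are given beside the share of all 14207 tested genes with the same call, a limma adjusted p under 0.05. In SDD against NIL, 4 of the 8 genes were called higher (Magel2, Peg3, Plagl1, Mest) and 0 lower, beside 9.32% of all tested genes called higher and 8.26% called lower. In SDDIR against SDD, 6 were called lower and 0 higher, beside 13.9% of all tested genes called lower and 8.66% called higher. In RISDD against SDD, 7 were called lower (all but Dlk1) and 0 higher, beside 22.6% called lower and 20.0% called higher. In RISDD against SDDIR, 4 were called lower (Magel2, Peg3, Plagl1, Mest) and 0 higher, beside 5.05% called lower and 4.64% called higher. The median log2 difference over the 8 genes was 0.86 for SDD minus NIL, -1.60 for SDDIR minus SDD, -2.78 for RISDD minus SDD and -0.74 for RISDD minus SDDIR, beside 0.05, 0.01, 0.02 and 0.01 over all tested genes. Groups did not overlap for 8 genes lower in SDDIR than in SDD (32.3% of tested genes), 7 lower in RISDD than in SDD (34.6%), and 1 higher (31.0%) and 5 lower (29.0%) in RISDD than in SDDIR. Because the genes were listed with such results known, nothing is read from these counts. Without SDDIR B the number called was 2 for SDDIR against SDD and 2 for RISDD against SDDIR. Without NIL C all 8 were called lower in SDDIR against SDD, Dlk1 and Grb10 with the 6 others. Over all tested genes that fit called 6336 in either direction, in place of 3199, and nothing is read from its count either. Igf2 and Dlk1 were also called lower in SDD against NIL without NIL B or with the replicate letter as a block.

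Partners of the 8 genes, in the same domain or near it, were not part of the list and were tested. They lie in or near the domains of genes picked with such results known, so their p-values are not independent of that choice. Of 12 partners that passed the filter, Zim1 and Usp29 at the Peg3 domain rose in SDD against NIL and fell in SDDIR and RISDD against SDD. Zim1, a maternally expressed zinc-finger gene, had 135, 207 and 103 scaled reads in RISDD, 129 and 229 in SDDIR, 3040, 2536 and 2167 in SDD, and 400, 493 and 205 in NIL. It was 7.43-fold higher in SDD than in NIL (limma adjusted p = 0.00086), 14.8-fold lower in SDDIR than SDD (adjusted p = 0.000125) and 17.9-fold lower in RISDD than in SDD (adjusted p = 8.89e-06). Usp29, which encodes a deubiquitinase and starts head to head with Peg3, had 43.3, 40.4 and 38.7 scaled reads in RISDD, 72.0 and 92.5 in SDDIR, 368, 377 and 278 in SDD, and 46.4, 26.8 and 24.3 in NIL. It was 10.5-fold higher in SDD than in NIL (adjusted p = 8.19e-05), 4.10-fold lower in SDDIR than SDD (adjusted p = 0.00101) and 8.11-fold lower in RISDD than in SDD (adjusted p = 1.09e-05). These 6 calls held in every alternative fit and with every library left out. Between RISDD and SDDIR neither passed, with log2 differences of -0.27 for Zim1 (adjusted p = 0.774) and -0.98 for Usp29 (adjusted p = 0.0688). The Usp29 difference passed without NIL A, without NIL C and with only the 2 groups fitted (adjusted p = 0.0115 to 0.0333).

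**Figure D3:**
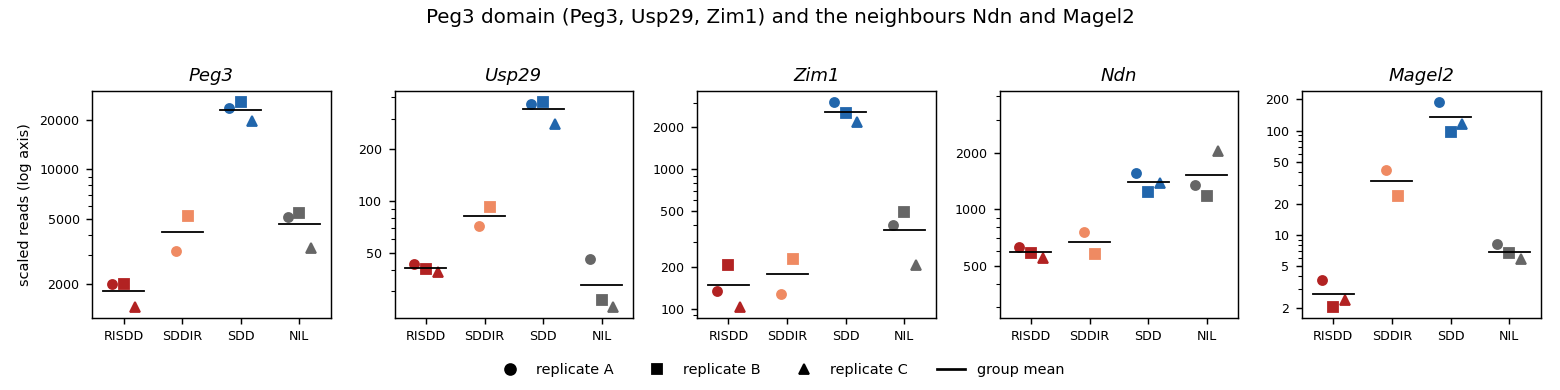
Scaled reads (log axis) in each library for the 3 genes of the Peg3 domain (Peg3, Usp29, Zim1) and for the neighbours Ndn and Magel2, with symbols for replicates A to C and a line at each group mean. Peg3, Usp29 and Zim1 are all highest in SDD, whereas Ndn is at a like level in SDD and NIL and Magel2 is not.

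Of the other listed genes of the Prader-Willi region, Peg12 was the one that passed with all libraries. Snrpn, which encodes a splicing protein, had 152, 166 and 218 scaled reads in RISDD, 315 and 319 in SDDIR, 248, 190 and 215 in SDD, and 280, 259 and 176 in NIL, and passed in none of the 4 comparisons. Without NIL C it passed in RISDD against SDDIR (adjusted p = 0.00524, and 0.0527 with all libraries) and in SDDIR against SDD (0.0239, and 0.134 with all libraries). Snurf, which shares transcripts with Snrpn, so that reads could be split between them, had 4.95, 18.2 and 0 scaled reads in RISDD, 13.6 and 10.7 in SDDIR, 0, 6.77 and 4.91 in SDD, and 8.95, 10.0 and 30.1 in NIL. The Snurf groups did not overlap in SDD against NIL, where the log2 difference was -2.07 ± 1.09 (SE, adjusted p = 0.207), nor in SDDIR against SDD, where it was 1.86 ± 1.22 (adjusted p = 0.324), and the gene passed in none of the 4 comparisons. Ube3a, an E3 ubiquitin ligase gene imprinted in neurons, and Mkrn3, a ring-finger gene at 5.80 to 31.6 scaled reads in any library, passed in none of the 4 comparisons. Without NIL C, Ube3a passed in RISDD against SDD (log2 difference 0.30, adjusted p = 0.0213). Without SDD A, Mkrn3 passed with log2 differences of -1.55 for SDD minus NIL, 1.41 for SDDIR minus SDD and 1.36 for RISDD minus SDD. Peg12 fell in SDDIR to 147 and 178 scaled reads, against 250, 268 and 276 in SDD (log2 difference -0.71, adjusted p = 0.017). That call was lost without SDD C (adjusted p = 0.0574) or SDDIR A (adjusted p = 0.159). Its log2 difference in RISDD against SDD was -0.44 (adjusted p = 0.048), and that call was lost under 12 of 18 alternatives.

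Near Igf2, Cdkn1c and Phlda2 rose in RISDD against SDD. Cdkn1c, which encodes a cell-cycle inhibitor expressed from the maternal copy, had 3229, 3387 and 3297 scaled reads in RISDD, against 1645, 1317 and 894 in SDD (2.65-fold, adjusted p = 0.0045). SDDIR, at 1902 and 2446, did not pass against SDD (log2 difference 0.79, adjusted p = 0.143, and 0.0179 without NIL C). Against NIL, at 847, 700 and 1735, the SDD difference was 0.30 (adjusted p = 0.517), and without NIL C it was 0.69 (adjusted p = 0.0445). Between RISDD and SDDIR the Cdkn1c difference was 0.61 (adjusted p = 0.336, and 0.00182 with only the 2 groups fitted). Phlda2, which restrains placental growth, had 40.8, 43.5 and 51.4 scaled reads in RISDD and 8.47 and 13 in SDDIR, against 0, 0 and 5.53 in SDD, and was listed at 0 in all NIL libraries. Phlda2 passed the minimum of 10 scaled reads in 3 libraries only through RISDD and SDDIR B, so its tests are not independent of that filter. Its RISDD minus SDD difference was 4.62 on the log2(value + 1) scale (adjusted p = 0.000439). The SDDIR minus SDD difference of 2.63 (adjusted p = 0.0382) was lost with edgeR on the recovered reads (adjusted p = 0.169), with only the 2 groups fitted, and without SDD A, SDD B, either SDDIR library or any RISDD library (adjusted p = 0.0683 to 0.217). Between RISDD and SDDIR the Phlda2 difference was 2.00 (adjusted p = 0.155), and it passed with a pseudocount of 10 (adjusted p = 0.00618) and with only the 2 groups fitted (adjusted p = 0.00176). Ascl2 was below the filter.

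At the other domains, Klf14, a maternally expressed transcription factor gene near Mest, had 0, 2.02 and 0 scaled reads in RISDD, 10.2 and 7.11 in SDDIR, 46.2, 18.4 and 19.7 in SDD, and 13.8, 10.0 and 14.6 in NIL. It fell in RISDD against SDD by 4.20 on the log2(value + 1) scale (adjusted p = 0.000187). Its log2 difference in RISDD against SDDIR was -2.72 (adjusted p = 0.0246), and that call was lost with a pseudocount of 10 and without RISDD A, RISDD C or either SDDIR library (adjusted p = 0.0827 to 0.187). Copg2, a coat-protein gene that overlaps Mest on the other strand, passed in none of the 4 comparisons with all libraries. Its log2 difference in RISDD against SDDIR was -0.37 (adjusted p = 0.53), and it passed without NIL C (adjusted p = 0.0364) and with only the 2 groups fitted (adjusted p = 0.0143). The Copg2 difference was 0.25 in SDDIR against SDD, -0.11 in RISDD against SDD and 0.16 in SDD against NIL, where it turned to -0.22 without NIL C. The sources used here do not say whether counting used strand, so reads where Mest and Copg2 overlap could be shared between them. Rtl1, in the Dlk1 domain, had 4.91 to 32.7 scaled reads and passed in none of the 4 comparisons, and Dio3 was below the filter. Ddc, next to Grb10, encodes aromatic amino acid decarboxylase and had 4.95, 6.07 and 6.32 scaled reads in RISDD, against 20.3, 9.67 and 23.3 in SDD (log2 difference -1.39, adjusted p = 0.0246). That call was lost without SDD A, SDD C or any RISDD library (adjusted p = 0.0556 to 0.0997).

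A wider list of 56 other imprinted genes showed no common direction. Of them 48 had a row and 41 passed the filter. In SDD against NIL 7 rose and 5 fell, in SDDIR against SDD 5 rose and 6 fell, in RISDD against SDD 14 rose and 13 fell, and in RISDD against SDDIR 4 rose and 3 fell. The share called among all tested genes in the same comparisons was 17.6%, 22.5%, 42.6% and 9.69%. The median log2 difference of the 41 genes was 0.16, -0.09, 0.14 and 0.03, all close to those over all tested genes given above. Asb4, a maternally expressed gene near Peg10 that encodes a ubiquitin ligase subunit, fell to 38.3, 31.3 and 11.9 scaled reads in RISDD and to 60.1 and 92.5 in SDDIR, against 1973, 1755 and 1172 in SDD. It was 62.9-fold lower in RISDD (adjusted p = 2.62e-06) and 21.1-fold lower in SDDIR (adjusted p = 0.000158). Kcnq1, which encodes a potassium channel, rose to 1781, 2082 and 2182 in RISDD and to 655 and 914 in SDDIR, against 15.8, 53.2 and 38.1 in SDD. It was 61.1-fold higher in RISDD (adjusted p = 2.77e-06) and 23.6-fold higher in SDDIR (adjusted p = 0.00013).

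Tfpi2, a protease inhibitor gene, fell to 90.2, 49.3 and 76.8 scaled reads in SDD, against 418, 422 and 265 in NIL (5.10-fold, adjusted p = 0.00127). It was 2.81-fold higher in RISDD than in SDDIR (adjusted p = 0.0247), a call lost without RISDD A, RISDD B or either SDDIR library (adjusted p = 0.0772 to 0.212). Slc38a4, an amino acid transporter gene expressed from the paternal copy, had 49.5, 38.4 and 37.9 scaled reads in RISDD, against 174 and 170 in SDDIR (4.05-fold lower, adjusted p = 0.00448, and 0.0544 without SDDIR A). Blcap rose in RISDD against SDDIR by 0.85 on the log2 scale (adjusted p = 0.0108), and that call was lost without RISDD B or either SDDIR library (adjusted p = 0.053 to 0.107). With only the groups compared in the fit, 6 of the 41 genes passed in SDD against NIL and 22 in RISDD against SDDIR. The count for RISDD against SDDIR was 0 without SDDIR A, 2 without SDDIR B, 3 without RISDD A or RISDD B, 4 without RISDD C and 18 without NIL C. The count for SDDIR against SDD was 7 without SDDIR A or SDDIR B and 17 without NIL C.

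**Figure D4:**
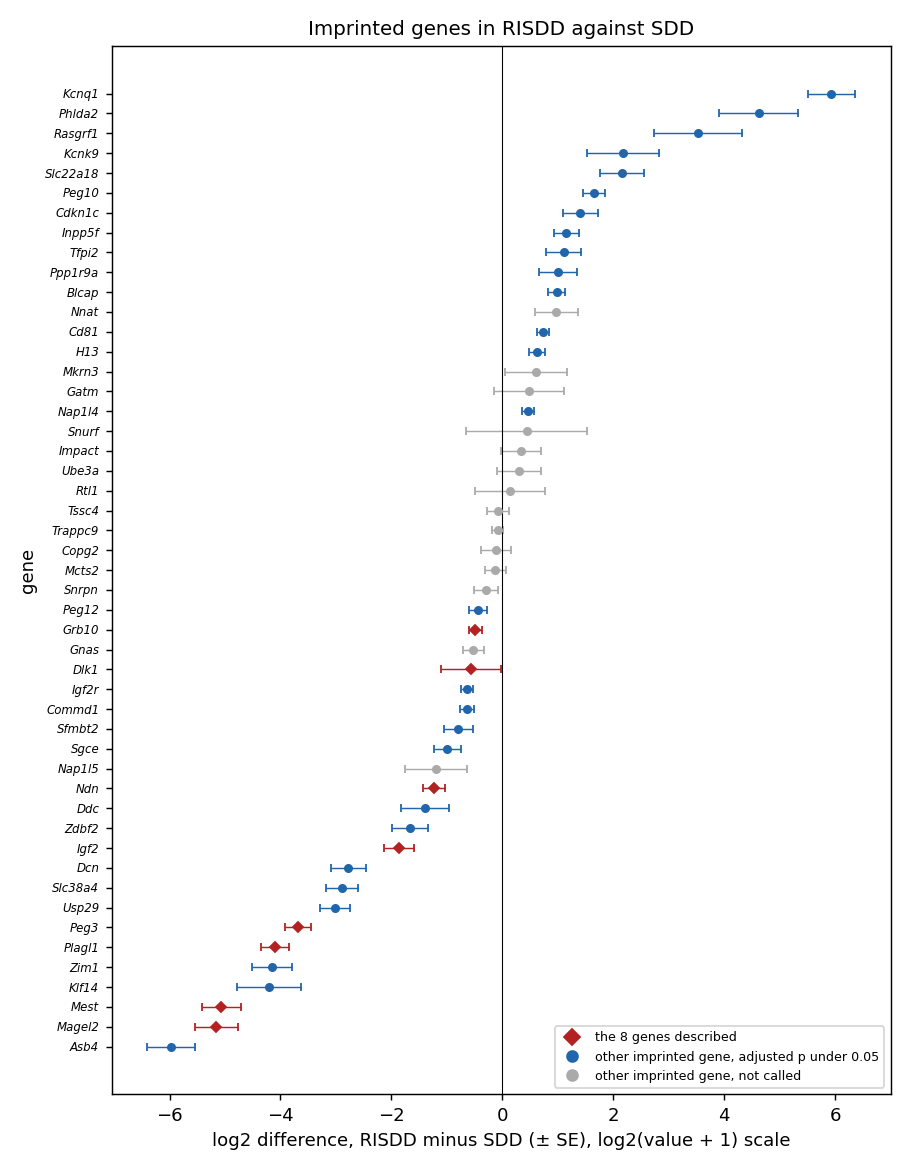
Log2 difference of RISDD minus SDD on the log2(value + 1) scale, with standard errors as bars, for the 8 imprinted genes described here (diamonds) and the 41 other imprinted genes tested (circles, blue where the adjusted p was under 0.05). The 41 other genes lie on both sides of 0, 14 called higher and 13 called lower, and the 8 genes, which were chosen with such differences known, lie left of 0.

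The receptors and signalling partners of IGF2 did not all move in the same direction. Of 8 such genes tested, 2 rose and 1 fell in SDD against NIL, 2 rose and 0 fell in SDDIR against SDD, 2 rose and 3 fell in RISDD against SDD, and 0 rose and 2 fell in RISDD against SDDIR. At an unadjusted limma p under 0.05, 2 fell in SDDIR against SDD and 1 rose in RISDD against SDDIR, and edgeR called 0 in both of these cases. Of all tested genes, limma called 9.32%, 8.66%, 20.0% and 4.64% higher in the 4 comparisons in the order above. It called 8.26%, 13.9%, 22.6% and 5.05% lower. Igf2bp1, which encodes an RNA-binding protein of the Igf2 transcript, rose to 2000, 2162 and 2102 scaled reads in RISDD and to 1342 and 1708 in SDDIR, against 469, 623 and 656 in SDD. It was 3.62-fold higher in RISDD (adjusted p = 1.85e-05) and 2.62-fold higher in SDDIR (adjusted p = 0.00084). Irs1, an adaptor of the insulin and IGF1 receptors, was at 1374, 1131 and 1367 in RISDD, 1488 and 1391 in SDDIR, 868, 716 and 624 in SDD and 1288, 1699 and 1276 in NIL. It fell in SDD against NIL (log2 difference -0.95, adjusted p = 0.00432) and rose in SDDIR and RISDD against SDD (0.98 and 0.82, adjusted p = 0.00344 and 0.00223). Irs2 went the other way in RISDD, with a log2 difference of -1.12 against SDD (adjusted p = 0.00058) and -1.44 against SDDIR (adjusted p = 0.0024). Its rise in SDD against NIL (0.72, adjusted p = 0.0229) was lost without NIL B, SDD A or SDD B and with only the 2 groups fitted (adjusted p = 0.0524 to 0.0911). The receptor gene Igf1r and the gene of the IGF2 clearance receptor, Igf2r, both fell in RISDD against SDD. Their log2 differences were -0.72 (limma adjusted p = 0.00202) and -0.63 (adjusted p = 0.0008), and alternative fits are not given for these calls. The insulin receptor gene Insr did not pass there (0.12, adjusted p = 0.531). Igf2bp2 in SDD against NIL (0.55, adjusted p = 0.0488) and Igf2r in RISDD against SDDIR (-0.44, adjusted p = 0.0435) passed narrowly. Of 18 alternatives, 13 lost the Igf2bp2 call (adjusted p of up to 0.179) and 10 the Igf2r call (up to 0.275).

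Of 9 other MAGE genes and partners of the MAGEL2 protein, 1 fell in SDD against NIL, 2 in SDDIR against SDD, 3 in RISDD against SDD and 0 in RISDD against SDDIR, and none rose in these 4 limma comparisons. At an unadjusted p under 0.05, 1 rose in RISDD against SDD, and 1 rose and 1 fell in RISDD against SDDIR. edgeR called the same numbers as limma with adjustment. Of all tested genes, limma called 8.26%, 13.9%, 22.6% and 5.05% lower in the 4 comparisons in the order above. It called 9.32%, 8.66%, 20.0% and 4.64% higher. Maged1, a MAGE gene linked to p75 neurotrophin receptor signalling, had 3670, 3367 and 3202 scaled reads in RISDD and 4784 and 5506 in SDDIR, against 11656, 8554 and 8643 in SDD. It was 2.79-fold lower in RISDD (adjusted p = 5.01e-05) and 1.85-fold lower in SDDIR (adjusted p = 0.00635, and 0.073 without SDDIR A). Nsmce3, the MAGE subunit of the SMC5/6 complex, fell in RISDD against SDD by 0.75 on the log2 scale (adjusted p = 0.00277) and in SDDIR against SDD by 0.83 (adjusted p = 0.0061, and 0.0861 without SDDIR A). Magee1 fell in SDD against NIL and in RISDD against SDD by 0.50 in each (adjusted p = 0.0423 and 0.0197). The RISDD call was lost without SDD A (adjusted p = 0.075) or RISDD A (adjusted p = 0.0807), and the SDD call under 12 of 18 alternatives (adjusted p of up to 0.168).

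A list of 11 imprint regulators mixed functions: some set or maintain methylation, the Tet genes oxidise it, and Ctcf binds DNA at imprinted domains. Of the 11, 4 rose and 0 fell in SDD against NIL, with Tet1, Tet2 and Ctcf among those that rose. In SDDIR against SDD 1 rose and 2 fell, and in RISDD against SDD 1 rose and 4 fell. In RISDD against SDDIR 0 were called by limma or edgeR, nor did any of the 11 reach an unadjusted limma p under 0.05 there. Of all tested genes, limma called 9.32%, 8.66%, 20.0% and 4.64% higher in the 4 comparisons in the order above, and 8.26%, 13.9%, 22.6% and 5.05% lower. Tet1, which oxidises methylcytosine, had 38.3, 40.4 and 59.3 scaled reads in RISDD and 31.3 and 41.5 in SDDIR, against 168, 111 and 122 in SDD. It was 2.87-fold lower in RISDD (adjusted p = 0.0019) and 3.57-fold lower in SDDIR (adjusted p = 0.00289). Zfp57, a zinc-finger protein that guards methylated imprints, was 2.19-fold higher in RISDD than in SDD (adjusted p = 0.000339) and 1.79-fold higher in SDDIR than in SDD (adjusted p = 0.00908, and 0.0957 without SDDIR A). The methyltransferase gene Dnmt3a fell in RISDD against SDD by 0.76 on the log2 scale (adjusted p = 0.000829) and in SDDIR against SDD by 0.66 (adjusted p = 0.00867). The SDDIR call was lost without either SDDIR library (adjusted p = 0.0599 to 0.0681). Tet1, Tet2 and Ctcf rose in SDD against NIL by 1.13, 0.79 and 0.38 (adjusted p = 0.0263, 0.0216 and 0.0359). The Tet1 and Tet2 calls were each lost in 3 of 18 alternatives, with only the 2 groups fitted (adjusted p = 0.0897 and 0.0831) and without SDD A or SDD C. The Ctcf call was lost in 12 of 18, among them no filter, upper-quartile scaling and the fits without NIL B or without any 1 library of SDD, RISDD or SDDIR (adjusted p of up to 0.166). Methylation was not measured in these libraries.

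The 8 genes were also compared with each other and with all genes of mean value at least 100 by the root mean square difference of centred log2 values over the 11 libraries, where 0 would be the same pattern. Among the 8, the most alike were Peg3 and Plagl1 at 0.476, then Ndn and Grb10 at 0.509, Ndn and Igf2 at 0.624, and Plagl1 and Mest at 0.712. Magel2 and Dlk1 were the least alike at 2.44. The neighbours Magel2 and Ndn stood at 1.88. The libraries share groups and treatments, so these are descriptions and no test.

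Of 10658 other genes, the closest to Igf2 were B3gnt9 at 0.289, Prickle1 at 0.292 and Cercam at 0.315. B3gnt9 had 115, 119 and 103 scaled reads in RISDD, 113 and 85.4 in SDDIR, 628, 346 and 380 in SDD, and 580, 548 and 578 in NIL. The closest to Dlk1 were Igfbp6 at 0.301, Plekha7 at 0.515 and Begain at 0.527. Igfbp6, which encodes a binding protein with a preference for IGF2, had 257, 209 and 289 in RISDD, 152 and 103 in SDDIR, 500, 272 and 453 in SDD, and 590, 369 and 1085 in NIL. Begain is the protein-coding neighbour of Dlk1 on chromosome 12 and had 90.3, 89.0 and 95.6 in RISDD, 29.6 and 48.6 in SDDIR, 212, 177 and 192 in SDD, and 357, 215 and 623 in NIL. Like Dlk1, it was lowest in SDDIR and highest in NIL C. The closest to Magel2 were farther away: Tmem100 at 0.869, St18 at 0.921 and Ccl5 at 0.967.

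Markers of cell types moved with the same comparisons. Fibroblast markers (8 of 8 tested) summed to 93800 to 97300 scaled reads in RISDD, 164100 to 172300 in SDDIR, 553800 to 680700 in SDD and 734100 to 1078000 in NIL, with none at 0, so the fibroblast origin was visible in every group. Of these 8, 7 fell in RISDD against SDD and 6 in SDDIR against SDD, beside 22.6% and 13.9% of all tested genes. Epithelial markers (6 of 6 tested) summed to 8717 to 12770 in RISDD, 2430 to 3769 in SDDIR, 63.9 to 72.2 in SDD and 915 to 1014 in NIL, with Cdh1 at 0 in all SDD libraries. Different genes held these sums. Krt8 and Krt18 held most of the RISDD sum, at means of 3386 and 7366 in RISDD against 11.8 and 64.1 in NIL. Dsp held most of the NIL sum, at a mean of 862 in NIL against 164 in RISDD, whereas the rest of the list was higher in RISDD. Neuron markers (9 of 9 tested) summed to 13500 to 14950 in RISDD, 6025 to 6219 in SDDIR, 7421 to 14130 in SDD and 2756 to 5412 in NIL, with none at 0. Nefl and Nefm, neurofilament genes, held most of the RISDD sum, at means of 8956 and 3884 in RISDD against 3294 and 1603 in SDD. In RISDD against SDD 4 neuron markers rose (Nefl, Nefm, Stmn2, Syt4) and 4 fell (Tubb3, Dcx, Elavl3, Map2). Of all tested genes, 20.0% were called higher there and 22.6% lower. Dcx, a microtubule-associated protein gene of young neurons, averaged 12.5 in RISDD and 859 in SDD, and Tubb3, a neuronal tubulin gene, averaged 678 in RISDD and 3192 in SDD. Myoblast and muscle markers (6 of 8 with a row, 2 tested) summed to 5834 to 6091 in RISDD, 4271 to 5356 in SDDIR, 1081 to 2402 in SDD and 2120 to 3237 in NIL. Nearly all of that sum was Chrna1, a muscle acetylcholine receptor subunit gene, at means of 5914 in RISDD, 4801 in SDDIR, 1633 in SDD and 2522 in NIL, whereas Des averaged 16.3, 12.6, 24.6 and 37.3 in the same groups and the rest of the list was below the filter. Of that list Myog was at 0 in RISDD, Myod1, Myog and Actc1 in SDDIR, Pax7 in SDD and Myod1 in NIL. The part of these marker changes in the levels of the imprinted genes was not tested.

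Macrophage and leukocyte markers and Schwann and neural crest markers summed highest in NIL, and endothelial markers in RISDD. Macrophage and leukocyte markers (6 of 7 tested) summed to 565 to 835 scaled reads in RISDD, 336 to 471 in SDDIR, 247 to 558 in SDD and 877 to 4023 in NIL, with Aif1 at 0 in RISDD and Cx3cr1 at 0 in SDDIR. Most of the RISDD and SDDIR sums was Cd68, at means of 621 in RISDD, 330 in SDDIR, 89.8 in SDD and 280 in NIL. The rest of the list had lower means in RISDD and SDDIR than in SDD and NIL. Endothelial markers (3 of 5 tested) summed to 496 to 601 in RISDD, 160 to 168 in SDDIR, 76.7 to 103 in SDD and 50.5 to 82.5 in NIL, with Emcn at 0 in RISDD, SDDIR and SDD. Cdh5 held most of the RISDD sum, at a mean of 459 in RISDD against 54.5 in SDD. Preadipocyte and adipocyte markers (3 of 5 tested) summed to 184 to 231 in RISDD, 130 to 155 in SDDIR, 315 to 573 in SDD and 323 to 662 in NIL, with Adipoq at 0 in RISDD and Plin1 at 0 in NIL. Schwann and neural crest markers (4 of 5 tested) summed to 26.9 to 72.8 in RISDD, 33.0 to 68.8 in SDDIR, 61.4 to 111 in SDD and 250 to 356 in NIL.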

How the data were processed

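PolyA RNA of the sorted cells went into directional libraries, per the labels' protocols. The submitters' processing notes name Trim Galore 0.6.10, Salmon 1.10.3 and genome build GRCm39. The sources used here do not name the scaling tool. As deposited, the signal in the table consists of counts per gene that the authors divided by 1 constant in each library. All values (100%) were whole multiples of that unit within a tolerance of 0.001, so reads could be recovered. Of 12 columns, 1 repeated SDDIR B in all 23077 rows and was not used, leaving 11 libraries. Its heading names replicate B, but whether its values are of replicate B or C could not be settled. The other of these SDDIR samples was not analysed here.

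Genes with at least 10 scaled reads in at least 3 libraries (14207) entered 1 limma fit (limma 3.58.1, R 4.3.3) over the 4 groups, on log2(value + 1), with trended and robust variance moderation. Folds are on that scale, which understates changes of low genes. A call is a Benjamini-Hochberg adjusted p under 0.05 over all tested genes. edgeR 4.0.16 on the recovered reads called 2479 genes in SDD against NIL, 3146 in SDDIR against SDD, 6034 in RISDD against SDD and 1344 in RISDD against SDDIR, against 2498, 3199, 6046 and 1377 with limma. Other alternatives were a pseudocount of 10, no filter, upper-quartile and TMM scaling, a replicate block, only the groups compared, and each library left out.

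The 8 genes and the other lists were chosen with earlier results of these data known. Text names all 8 and their partners in or near a domain that passed the filter. From each list and comparison it names up to 3 called genes with the largest absolute log2 difference and a mean value of 100 or more in either group. Dio3 and Ascl2, below the filter, and Snurf, Igf1r and Insr were named besides. Snurf, Igf1r, Insr, the Igf2r fall in RISDD against SDD and single marker genes were added after their values were seen. Alternatives for genes outside the 8 were added after the data were seen. Promoter windows were matched by symbol for 8 of 8 genes. The code was tested on simulated data.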

Additional observations from a re-analysis of the deposited data

How the results depend on the processing

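The log2 differences of the 8 genes kept their sign in each comparison in which the gene was called, under all alternatives run, and 563 recomputed values moved by less than the spread between replicates and 13 by more (Magel2 and Peg3). The number of the 8 genes called over the fits leaving out 1 library ranged from 4 to 6 in SDD against NIL, 2 to 8 in SDDIR against SDD and 2 to 4 in RISDD against SDDIR, and was 7 throughout in RISDD against SDD. The 8 genes were picked with such results known, so nothing is read from the number or loss of their calls in this section. Scaling moved the median of all genes by less than 0.1 (log2) in each comparison.

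With only the groups compared, calls among the 41 other imprinted genes numbered 6 in place of 12 in SDD against NIL and 22 in place of 7 in RISDD against SDDIR. Leaving out 1 library gave 7 to 17 calls in SDDIR against SDD (11 with all libraries) and 0 to 18 in RISDD against SDDIR (7). Over all tested genes, calls in SDD against NIL were 697 with only the groups compared and 1226 to 4114 with 1 library left out, in place of 2498. In SDDIR against SDD they were 5361 and 1673 to 6336, in place of 3199, and in RISDD against SDDIR 4923 and 308 to 4186, in place of 1377. The highest of each range was without NIL C. Fits without SDDIR A or SDDIR B leave 1 library in that group, which is then assumed to vary like the others.

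Single calls lost among the 8 genes, with their log2 differences, were Igf2 (-1.20), Magel2 (-1.58), Mest (-1.51) and Ndn (-0.87) in SDDIR against SDD without SDDIR B, and Mest there without SDDIR A (-1.57). Mest in SDD against NIL was lost with only the groups compared. In RISDD against SDDIR, Plagl1 was lost without SDDIR A or SDDIR B, and Peg3 without RISDD B, RISDD C or SDDIR B. The cause was not tested.

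Whether the replicate letters pair the libraries was not settled. Correlations of the deviations of same-lettered libraries from their group means ran from 0.000225 to 0.216, all of them positive. Some were over 0.1, and libraries of different letters were not compared in this way. The letter of SDDIR B is uncertain, so its part in these values and in the block is too. With a replicate block, 6 of the 8 genes were called in SDD against NIL, 7 in SDDIR against SDD, 7 in RISDD against SDD and 4 in RISDD against SDDIR.

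Depth limits Magel2 most, with 2 to 10 reads in each RISDD and NIL library.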

Other observations

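Igf2 and Dlk1 had their lowest value in replicate B in each of the 3 groups with 3 libraries, a pattern noticed after the values were seen. Igf2 was 1383 scaled reads in RISDD B, 4076 in SDD B and 7931 in NIL B. Dlk1 was 658 in RISDD B, 851 in SDD B and 1291 in NIL B. Over all tested genes, 810 of 14207 (5.70%) were lowest in B in these 3 groups. Magel2 and Mest were highest in replicate A in the same 3 groups, as were 887 of 14207 tested genes (6.24%). For Magel2 this rests on few reads: 3, 2 and 3 in RISDD A, B and C, where A and C differ only by the scaling, and 10, 6 and 6 in NIL. SDDIR was left out because the letter of 1 of its libraries could not be settled. The letters carry no statement of a shared culture or day.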
